A study of Arabidopsis thaliana with 13 samples.

Results

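The question was which transcripts responded to pifithrin-α (PFT-α) in dark-grown wild-type Arabidopsis thaliana. PFT-α is a small molecule first described in mammalian cells as a blocker of transcription driven by the tumour suppressor p53, and the series asks about its action on the ethylene receptor ETR1 and on shade avoidance. The comparison set the 3 PFT-α libraries of the Col-0 accession against the 3 mock libraries, 6 of the 13 libraries of the series, chosen by their labels and paired by replicate number. All seedlings had 6 h of white light and were then kept dark at 22 °C until they were 4 days old. Whole seedlings were then held for 4 h in liquid medium with 30 µM PFT-α or, as mock, 1‰ DMSO by volume. The light during those 4 h, and any DMSO in the PFT-α medium, are not given in the sources used here. A further 3 Col-0 libraries came from seedlings given 10 µM ACC, the compound from which plants make ethylene, again with no DMSO stated. The remaining 4 libraries came from etr1-1 seedlings, 2 with mock and 2 with PFT-α, which carry a dominant form of the receptor that keeps them from responding to ethylene. The labels do not say whether libraries of a group came from separate batches of seedlings, so p-values measure only the spread between these libraries, which may be technical.

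Ethylene is perceived by a small family of receptors, of which ETR1 is one, that keep the kinase CTR1 active while no ethylene is bound. Binding releases the membrane protein EIN2, the transcription factors EIN3 and EIL1 accumulate, and target genes such as ERF1, EBF2 and the organ-size gene ARL are transcribed. In dark-grown seedlings this gives a short, thick hypocotyl and a tight apical hook. Shade avoidance is the opposite kind of growth, in which phytochrome-interacting factors (PIFs) and auxin drive elongation, and the homeobox gene HB-2 (ATHB2) is one of its standard markers.

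Values were TPM, transcript abundances scaled for gene length and library size, and differences were taken as PFT-α minus mock on the log2(TPM + 1) scale, which understates the change of low genes. The 6 libraries held an estimated 20.3 to 24.5 M fragments. Replicate 3 stood apart in both groups. There, 3713 of 21091 tested genes in mock and 3781 under PFT-α lay at least 2-fold from the mean of replicates 1 and 2, while replicates 1 and 2 differed by 2-fold in 441 and 426 genes. The summed TPM of 8 root marker genes was 506.2, 507.7 and 125.6 in mock replicates 1 to 3 and 450.5, 438.9 and 98.31 under PFT-α, so the pairs were kept together in every fit below unless another is named. No source says whether strand was used in counting, so a gene whose exons overlap another gene has an uncertain value. Among the genes named below these are ETR1, EIL3, ERS1, EBF2, HCHIB, ORS1, SHY2, CKX5, GSTU6, CYP81D11, DTX1, AT2G44130, KMD4, EXPA2, EXPA7, EXPA18, BCAT-2, CAB1, ADH1, ERF73, OLEO2, 4CL1, IMS1, FRK1, CASP1, ATRAD17, AT2G09775 and J8. Of the 13 libraries, the one labelled etr1-1 mock 1 went against its label. RTE1, an ethylene-induced gene, measured 34.06 TPM there, within the 30.11 to 37.94 of ACC-treated wild type, and 9.17 TPM in etr1-1 mock 2.

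No gene passed the test between PFT-α and mock. With limma's moderated test, a block for the pair and Benjamini-Hochberg adjustment, 0 of 21091 genes (0.0%) had an adjusted p under 0.05, and the smallest adjusted p was 0.606. At an unadjusted p under 0.05 there were 817 genes (3.87%), 277 higher (1.31%) and 540 lower (2.56%), where 1055 would be expected with no difference at all. The 95% interval of a gene's difference had a median half-width of 0.338 on the log2 scale, and 0.298 for the 15686 genes with a mean of at least 5 TPM. At a shift of 2-fold the interval of a typical gene would thus leave out 0, but that interval is not adjusted for the number of genes. AT2G44130, at 1.46 with an interval clear of 0, had an adjusted p of 0.606 in limma's test. A gene that was not called may therefore still have shifted by 2-fold. ACC in the same fit gave 331 higher (1.57%) and 828 lower genes (3.93%), and PFT-α against ACC gave 358 higher (1.7%) and 193 lower genes (0.915%), 2.61% in all. The sign was the same in all 3 pairs for 2521 higher (12%) and 3653 lower genes (17.3%), and the 3 values of one group all exceeded the 3 of the other for 227 higher (1.08%) and 543 lower genes (2.57%). The difference was above 0 for 42.8% of genes. These percentages are the background for the counts below. The gene lists were chosen with earlier results of these data known, so a list's count beside its background is a description and not support. With 3 pairs an exact two-sided test on a single gene cannot go under p = 0.25.

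Among single genes AT2G44130 stood out by level and size. It encodes a kelch-repeat F-box protein of the KISS ME DEADLY family, also named KMD3. F-box proteins select targets for ubiquitination, and this family is known to bring about the destruction of type-B cytokinin response regulators and of phenylalanine ammonia-lyase (PAL), the entry enzyme of phenylpropanoid synthesis. AT2G44130 measured 122.3, 131.2 and 45.94 TPM in mock replicates 1 to 3 and 370.3, 301.1 and 140.7 TPM under PFT-α. All 3 PFT-α libraries exceeded all 3 mock libraries, and the mean difference was 1.46 (95% interval 0.95 to 1.97, unadjusted p = 0.00023, adjusted p = 0.606). In ACC-treated seedlings the gene measured 75.84, 91.73 and 60.71 TPM, and PFT-α was above ACC by 1.73 (adjusted p = 0.0133 in limma's test). The same PFT-α libraries singled out the gene, so that value is a description and not support. In etr1-1 the 2 mock libraries held 98.17 and 125.6 TPM and the 2 PFT-α libraries 550 and 497.5 TPM, a difference of 2.23 (SE 0.254, adjusted p = 0.0411 in a fit of all 13 libraries with the pairs kept in wild type). Without the library labelled etr1-1 mock 1 that difference was 2.05, and without mock 2 it was 2.402. Without PFT-α replicate 1 or 2 of etr1-1 it was 2.153 or 2.298. These fits leave 1 library in a group, so only the size is given. AT2G44130 was not called in etr1-1 with a pseudocount of 0.1 (adjusted p = 0.07005 in limma's test) or with no replicate block. With the block over all 13 libraries (adjusted p = 0.03398) or library weights (adjusted p = 0.0395) it was called. The call thus depended on the model used. The exons of AT2G44130 overlap AT2G44140 on the other strand, a gene at no more than 31.0 TPM in the wild-type mock and PFT-α libraries. The level of AT2G44140 in the ACC and etr1-1 libraries was not looked at.

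When the wild-type and etr1-1 differences were averaged, a contrast chosen after the values were seen, 3 genes were called higher (0.0142% of those tested) and 1 lower (0.00474%). AT2G44130 rose by 1.84 (SE 0.164, adjusted p = 0.0127). RIPK, a receptor-like cytoplasmic kinase that phosphorylates the immune protein RIN4, rose by 0.92 (SE 0.0897, adjusted p = 0.0185). AT3G13310, a small J-domain protein also named DJC66, rose by 1.58 (SE 0.167, adjusted p = 0.0269). J-domain proteins are partners that stimulate Hsp70 chaperones. Over 12 alternatives, among them leaving out each of the 10 mock and PFT-α libraries, AT2G44130 was called in 9 with adjusted p from 0.00279 to 0.119. RIPK was called in 5 with adjusted p from 0.00279 to 0.157, and AT3G13310 in 5 with adjusted p from 0.00279 to 0.195. Without the library labelled etr1-1 mock 1 none of the 3 was called in limma's test, at 1.75 for AT2G44130 (adjusted p = 0.0521), 0.89 for RIPK and 1.45 for AT3G13310 (adjusted p = 0.0661 each). The lower call, AT4G39366, is a 120-base feature at 0 TPM in all wild-type libraries.

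The levels behind those calls were as follows. In wild type RIPK measured 25.61, 25.87 and 11.84 TPM in mock and 41.69, 42.65 and 20.64 TPM under PFT-α, so that replicate 3 of PFT-α lay under replicates 1 and 2 of mock while the pairs differed by 0.68, 0.70 and 0.75. AT3G13310 measured 83.27, 81.69 and 28.19 TPM in mock and 180.9, 194.4 and 84.48 TPM under PFT-α, with no overlap between the groups and a difference of 1.3 (95% interval 0.81 to 1.79). PFT-α was above ACC by 0.92 for RIPK (adjusted p = 0.0157) and 1.44 for AT3G13310 (adjusted p = 0.02) in limma's test. Since the same PFT-α libraries singled out both genes, these values are a description and not support. In etr1-1 RIPK stood at 19.52 and 20.88 TPM in mock and 46.97 and 43.45 under PFT-α, and AT3G13310 at 55.28 and 79.5 against 244.9 and 240.6. Neither gene was called in etr1-1 alone (limma adjusted p = 0.065 for RIPK and 0.127 for AT3G13310).

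**Figure D1:**
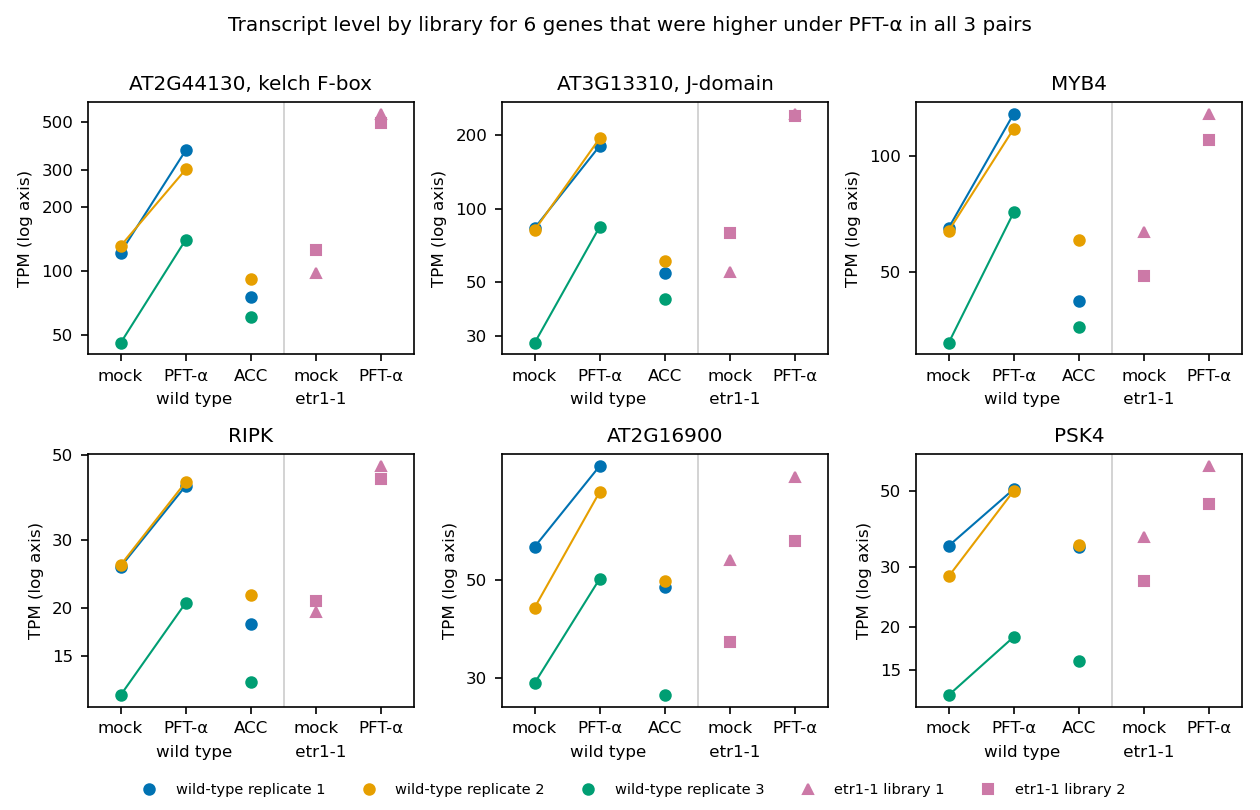
TPM on a log axis for 6 genes in every library, with wild-type replicates 1 to 3 as circles joined from mock to PFT-α, ACC circles unjoined, and the 2 etr1-1 libraries of each treatment as a triangle and a square. In each panel every wild-type line slopes upward, replicate 3 starts lowest, and both etr1-1 PFT-α points lie above both etr1-1 mock points.

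The 250 bases before the annotated start of the 3 called genes are given because these genes were called together; they are RefSeq sequence of TAIR10.1, on the gene's strand, with capitals on matches to the cores searched. The cores were the G-box CACGTG, the W-box core TTGAC bound by WRKY factors, the TGA core TGACG and the GCC-box GCCGCC bound by ethylene response factors, each on both strands.
RIPK, chr2:2289637-2289886, minus strand: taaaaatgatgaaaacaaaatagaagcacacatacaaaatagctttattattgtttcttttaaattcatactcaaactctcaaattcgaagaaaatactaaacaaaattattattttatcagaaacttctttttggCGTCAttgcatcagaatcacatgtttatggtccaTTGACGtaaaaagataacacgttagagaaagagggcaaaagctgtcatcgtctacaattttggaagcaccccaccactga
AT2G44130, chr2:18253360-18253609, plus strand: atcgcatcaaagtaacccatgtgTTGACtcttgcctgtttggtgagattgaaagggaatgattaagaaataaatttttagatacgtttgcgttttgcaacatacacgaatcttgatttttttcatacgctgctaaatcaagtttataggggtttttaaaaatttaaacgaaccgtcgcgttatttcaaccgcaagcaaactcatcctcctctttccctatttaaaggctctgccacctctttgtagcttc
AT3G13310, chr3:4311630-4311879, minus strand: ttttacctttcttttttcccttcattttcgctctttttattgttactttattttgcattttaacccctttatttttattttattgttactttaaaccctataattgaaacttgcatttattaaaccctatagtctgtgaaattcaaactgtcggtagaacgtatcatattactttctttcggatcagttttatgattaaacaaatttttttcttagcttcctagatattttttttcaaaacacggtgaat
RIPK held 1 W-box core and 2 TGA cores, of which 1 overlaps the W-box core as TTGACG. AT2G44130 held 1 W-box core, and AT3G13310 held no match. None of the 3 windows held a GCC-box or a G-box. Among 20816 windows of the same length, 44.8% held a W-box core, 19.3% a TGA core, 7.23% a G-box and 2.0% a GCC-box, so a match in a single window is common for the first of these.

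The kelch F-box list as a whole lay close to mock. It held 11 tested genes with a median difference of 0.04, beside -0.02 over all tested genes, and 4 were higher and 3 lower in all 3 pairs. The 4 higher genes are the 4 KISS ME DEADLY genes, a grouping noticed after the values were seen. KMD4 (AT3G59940) measured 53.46, 54 and 78.57 TPM in mock and 94.55, 92.64 and 147.3 TPM under PFT-α, without overlap, for a difference of 0.83 (95% interval 0.38 to 1.27). Its exons overlap AT3G09275, at up to 178.41 TPM in the wild-type mock and PFT-α libraries, on the other strand. KMD2 (AT1G15670) measured 203.7, 157.3 and 58.64 TPM in mock and 223, 221.9 and 70.86 under PFT-α, a difference of 0.30. KMD1 (AT1G80440) measured 145.1, 151.4 and 50.58 TPM in mock and 176.2, 176.9 and 56.84 under PFT-α, a difference of 0.22. For KMD2 and KMD1 the groups overlapped, with replicate 3 lowest in each. In etr1-1 KMD4 differed by 1.12 and KMD1 by 0.63. Of the other list members AT1G23390 differed by -0.27 and AT1G67480 by -0.22.

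MYB4, a transcription factor that represses phenylpropanoid genes, was higher in every pair. It measured 65.12, 64.02 and 32.77 TPM in mock and 129, 118 and 71.59 TPM under PFT-α, with all PFT-α values above all mock values. The difference was 0.98 (95% interval 0.62 to 1.34, adjusted p = 0.622). PFT-α was above ACC by 1.17 (adjusted p = 0.0148 in limma's test), from the same PFT-α libraries that singled out MYB4, so that value is no further support. In etr1-1 MYB4 measured 63.56 and 48.87 TPM in mock and 128.6 and 110.1 under PFT-α. Its relatives MYB7 and MYB32, also repressors of this kind, differed by 0.36 and 0.19, with MYB7 at 43.76, 42.58 and 19.13 TPM in mock and 56.14, 51.69 and 26.66 under PFT-α.

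Genes of the phenylpropanoid and flavonoid pathway, which makes lignin precursors, sinapate esters and flavonoids, were mostly lower. Of 24 tested genes 11 were lower and 2 higher in all 3 pairs, beside 17.3% and 12% of all genes, and 5 were lower and 2 higher at an unadjusted p under 0.05. The median difference was -0.27 over the list, and -0.19, -0.16 and -0.29 in pairs 1 to 3. Under ACC, against the same mock libraries, it was -0.19. Of the 4 PAL genes, PAL4 and PAL1 were lower in all 3 pairs. PAL1 measured 62.33, 65.85 and 24.72 TPM in mock and 57.48, 52.09 and 12.12 under PFT-α, a difference of -0.47 (95% interval -0.87 to -0.07). 4CL1, which activates coumarate with coenzyme A, measured 64.46, 68.31 and 43.42 TPM in mock and 55.71, 56.72 and 25.85 under PFT-α, a difference of -0.40. OMT1, the caffeate and flavonol O-methyltransferase, measured 420.1, 405.8 and 191.2 TPM in mock and 339.1, 324.3 and 148.9 under PFT-α, a difference of -0.33. In OMT1 each PFT-α library was below its own mock partner by a similar share, while the groups overlapped, with replicate 3 lowest in both. PAL4 differed by -0.61, 4CL2 by -0.46, HCT by -0.36 and PAL2 by -0.34, the last in 2 of 3 pairs. The list's median was 0.25 in etr1-1 and -0.00 there against mock 2 alone, and -0.15 in wild type without replicate 3.

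The 12 genes with the smallest unadjusted p among those higher in all 3 pairs, at least 5 TPM on average and free of exon overlap, included AT3G13310, RIPK and MYB4 and were of mixed kind. They were picked by this comparison, so their low p-values describe the selection. AT2G16900, a phospholipase-like protein of the PEARLI4 family, measured 59.59, 43.36 and 29.22 TPM in mock and 91.07, 79.56 and 50.48 under PFT-α, a difference of 0.74 (95% interval 0.50 to 0.99). PSK4, a precursor of the growth peptide phytosulfokine, measured 34.57, 28.16 and 12.68 TPM in mock and 50.67, 50.11 and 18.77 under PFT-α, a difference of 0.63. RTFL12, of the ROT FOUR-like family of small proteins that restrain cell proliferation, measured 6.59, 6.28 and 11.4 TPM in mock and 12.2, 11.75 and 18.16 under PFT-α, a difference of 0.74. RTFL12 groups did not overlap, and the gene was called 1.97 higher under ACC. Also among the 12 were AT1G60750, an oxidoreductase of the aldo-keto type, with 0.74, and AT1G72290, a Kunitz-type protease inhibitor, with 0.86. AT5G44582 had 0.78, AT1G17830 0.76 and AT1G70420 0.48. AT4G07170, a 234-base noncoding RNA, had the highest at 1.62. The 12 adjusted p-values ran no lower than 0.606, 4 of the 12 had groups that did not overlap, and 7 of 12 were called between PFT-α and ACC. Since the same PFT-α libraries chose the 12, that count is a description and not support. Of the 12, 8 had the same sign in etr1-1 and 11 did against etr1-1 mock 2 alone, beside 40.5% and 42.8% of all genes.

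The 12 genes chosen in the same way on the lower side were of mixed kind too. AT1G14930, of the Bet v 1-like family, measured 10.74, 14.22 and 39.31 TPM in mock and 3.57, 3.32 and 9.75 under PFT-α, a difference of -1.70 (95% interval -2.18 to -1.21, unadjusted p = 6.77e-05, adjusted p = 0.606). MLP31, a related major latex protein, measured 5.65, 12.14 and 27.58 TPM in mock and 3.07, 2.94 and 9.69 under PFT-α. EPR1, an extensin-like cell wall protein of the germinating endosperm, measured 19.53, 35.66 and 187.8 TPM in mock and 6.91, 7.65 and 68.95 under PFT-α, a difference of -1.63. In these genes each PFT-α library was below its mock partner, and replicate 3 was highest in both groups, so that the groups of EPR1 and MLP31 overlapped. SESA4, a 2S albumin, AT3G15670, a late embryogenesis abundant protein, and AT2G28490, a cupin storage protein, differed by -1.73, -1.33 and -0.93. The opposite replicate pattern was found in 4 others. The peroxidase AT5G17820 measured 80.07, 85.69 and 4.58 TPM in mock and 50.77, 56.44 and 2.89 under PFT-α, a difference of -0.59. AT5G46890, the acyltransferase gene AT5G07080 and the methylesterase MES1 differed by -1.19, -0.46 and -0.77, with replicate 3 again lowest. EXPB1, a β-expansin that loosens walls, measured 24.75, 31.55 and 26.54 TPM in mock and 16.77, 19.52 and 16.35 under PFT-α, a difference of -0.62 with no overlap, and was 2.65 lower under ACC. The thionin AT2G15010 had -0.94, also with no overlap. Of the 12, 3 had the same sign in etr1-1 and 5 did against mock 2 alone, beside 59.1% and 56.7% of all genes.

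**Figure D2:**
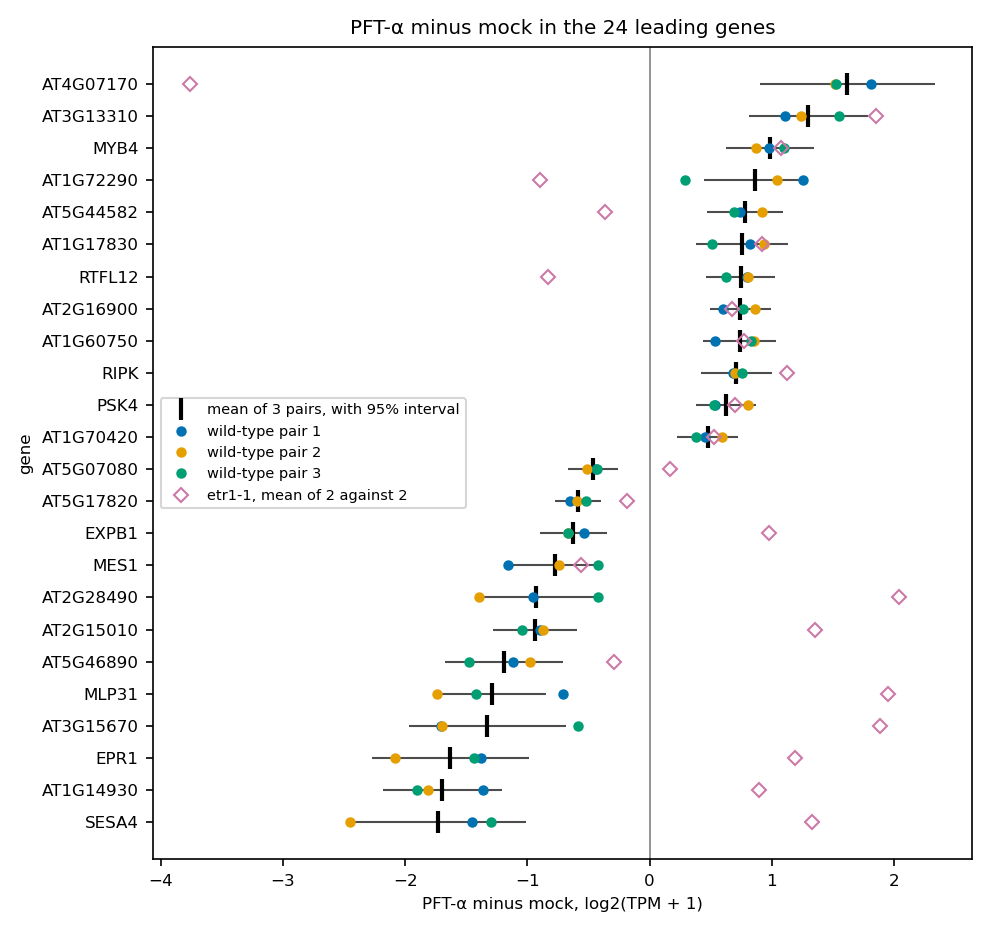
Difference between PFT-α and mock on the log2(TPM + 1) scale for 24 genes, 12 higher and 12 lower, with the 3 wild-type pairs as filled circles, the mean with its 95% interval as a black bar and line, and the etr1-1 difference of 2 against 2 libraries as an open diamond. The 3 pairs lie on one side of 0 for every gene, as the choice of the genes requires, and 8 diamonds lie with the higher and 3 with the lower genes.

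Ethylene-induced genes were close to their mock levels under PFT-α and far from their ACC levels. Of 19 tested genes 15 were above 0, 6 were higher and 1 lower in all 3 pairs, and the median difference was 0.16. Under ACC 14 of the 19 were called higher, beside 1.57% of all genes. Of the 19, 13 were called lower under PFT-α than under ACC, beside 0.915%. All 14 genes called under ACC were above 0 under PFT-α, beside 42.8% of all genes, with a median of 0.20. Both differences use the same mock libraries, so their signs are not independent. ARL, which promotes cell expansion in cotyledons and leaves, had the largest PFT-α difference and measured 143.6, 103.6 and 185.2 TPM in mock, 222.8, 175.8 and 205.5 under PFT-α and 353.3, 369.9 and 396.8 under ACC. Its PFT-α difference was 0.51 (95% interval 0.15 to 0.88, unadjusted p = 0.012), and the mock and PFT-α groups overlapped. ORS1, another organ-size gene, measured 15.94, 8.38 and 13 TPM in mock, 17.51, 16.51 and 16.72 under PFT-α and 96.86, 116.4 and 84.49 under ACC. RTE1, a membrane protein that keeps ETR1 signalling, measured 9.93, 10.29 and 10.82 TPM in mock, 15, 11.6 and 14.24 under PFT-α and 33.93, 37.94 and 30.11 under ACC. For ORS1 and RTE1 the 3 PFT-α values were above the 3 mock values, with differences of 0.46 and 0.36, and PFT-α was below ACC by 2.47 (adjusted p = 0.0033) and 1.26 (adjusted p = 0.0075), respectively. HLS1, which is required for the apical hook, measured 36.64, 31.32 and 41.22 TPM in mock and 44.62, 39.48 and 42.97 under PFT-α, a difference of 0.22.

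The remaining ethylene-induced genes had smaller differences. ERF1 and ERF2, transcription factors downstream of EIN3, had 0.36 (95% interval -0.05 to 0.76) and 0.29. The receptors ERS2 and ETR2 had 0.22 and 0.18, and the repressors ARGOS, EDF3 and EBF2 had 0.16, 0.16 and 0.08. TEM1, ERS1 and RAV2 lay between 0.03 and 0.06. The defence genes PR4 and HCHIB had -0.01 and -0.10, the root hair factor RSL4 -0.12, and RAV1, lower in all 3 pairs, -0.16. ESE1 and OSR2 did not pass the filter on low values.

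**Figure D3:**
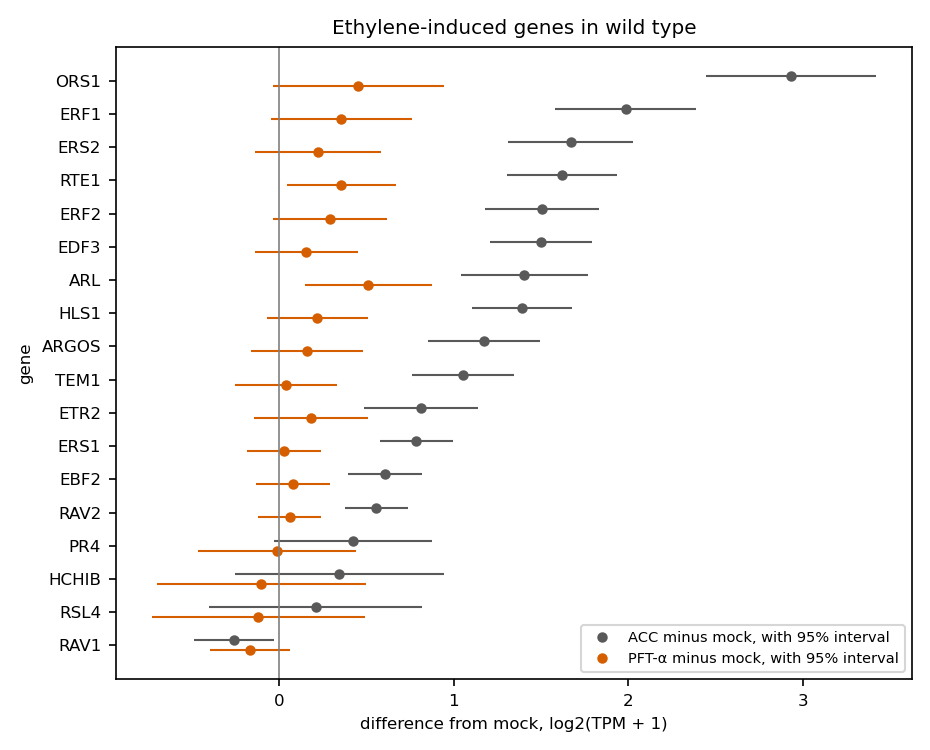
Difference from mock in wild type for the ethylene-induced genes named in the text on the log2(TPM + 1) scale, with PFT-α in orange, ACC in grey and 95% intervals as lines. ACC points reach 2.93 for ORS1, while the highest PFT-α point is 0.51 for ARL.

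The genes of perception and signalling themselves lay close to mock level. All 7 that were called higher under ACC were above 0 under PFT-α, with a median of 0.17 beside 0.81 under ACC, against the same mock libraries. ETR1 measured 24.99, 23.11 and 17.16 TPM in mock and 24.88, 22.48 and 19.79 under PFT-α, a difference of 0.05 (95% interval -0.15 to 0.25). The groups overlapped, and the sign of so small a difference turned in some alternatives. CTR1, the kinase that the receptors hold active, measured 69.23, 60.43 and 46.61 TPM in mock and 77.77, 70.05 and 51.72 under PFT-α, a difference of 0.17, against a called 1.22 under ACC. EIN2 had 0.03, EIN3 -0.15, EIL1 -0.04, EBF1 -0.01, the receptor EIN4 -0.11 and EIL3 -0.09. Of the 19 genes of this list 3 were higher and 1 lower in all 3 pairs, around a median of -0.00. Genes of ethylene synthesis, 16 tested, had a median of -0.11 with 0 higher and 2 lower in all 3 pairs.

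HB-2 did not differ measurably from mock. It measured 40.97, 39.39 and 31.13 TPM in mock, 39.2, 42 and 34 under PFT-α and 20.82, 22.09 and 22.98 under ACC. The PFT-α difference was 0.05 (95% interval -0.22 to 0.32), and PFT-α was above ACC by 0.77 (adjusted p = 0.0209). In the shade avoidance and PIF list 7 of 29 genes were higher and 6 lower in all 3 pairs, with a median of -0.04. CKX5, a cytokinin-degrading oxidase, had 0.36, FHL, which carries phytochrome A into the nucleus, 0.35, and PIF3 0.17, the last 2 with groups that did not overlap. PAR2, an inhibitor of PIF action, measured 64.91, 57.96 and 46.34 TPM in mock and 54.3, 52.99 and 23.33 under PFT-α, a difference of -0.45. IAA19, an auxin-induced repressor linked to hypocotyl growth, measured 241.8, 248.5 and 112.3 TPM in mock and 214.9, 213.5 and 69.58 under PFT-α, a difference of -0.36. HFR1 had -0.13 and PIL1 0.10.

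Auxin-responsive genes were likewise near mock under PFT-α. Of 24 tested, 7 were higher and 3 lower in all 3 pairs, and the median was 0.07, whereas the median under ACC was -0.78 with 11 called lower. PFT-α was called above ACC in 11 of them. LBD16, a factor of lateral root initiation, had 0.34, the auxin-conjugating enzyme gene GH3.3 0.25, and the growth genes SAUR23 and SAUR24 0.24 each. SHY2 (IAA3) had -0.24. IAA6 measured 35.29, 36.38 and 17.27 TPM in mock and 32.61, 32.95 and 16.85 under PFT-α, a difference of -0.09, beside -2.63 under ACC.

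Genes of the low-oxygen response, which carry ethanol fermentation and haemoglobin synthesis, were higher in most cases. Of 16 tested genes 15 were above 0 and 13 were higher and 0 lower in all 3 pairs, beside 12% of all genes higher. The median was 0.42, beside 0.81 under ACC against the same mock libraries, with 0.39, 0.70 and 0.29 in pairs 1 to 3, and 1 gene was higher at an unadjusted p under 0.05. The spread was wide, and mock replicate 1 held more of these transcripts than the other mock libraries. Their summed TPM was 1068, 455.4 and 468.8 in mock, 1446, 885.6 and 552 under PFT-α, and 1185, 2130 and 624.9 under ACC. ADH1, alcohol dehydrogenase, measured 275.1, 74.49 and 75.58 TPM in mock and 422.5, 227.9 and 95.53 under PFT-α, a difference of 0.85 (95% interval -0.40 to 2.1). HB1, the class 1 haemoglobin, measured 141.6, 46.13 and 34.72 TPM in mock and 212.4, 138.5 and 43.68 under PFT-α, a difference of 0.82. FTM1, a desaturase-like protein, measured 11.57, 6.46 and 10.93 TPM in mock and 15.42, 17.42 and 24.49 under PFT-α. FTM1 was the one member whose interval left out 0 (0.93, 95% interval 0.26 to 1.60), and its groups did not overlap. The sucrose synthase SUS4 had 0.65, the pyruvate decarboxylase AT4G33070 0.56, AT5G10040 0.91 with an interval from -1.33 to 3.15, the factor ERF71 0.41 and the cysteine oxidase AT5G15120 0.38, while the factor ERF73 had -0.04. In etr1-1 the list's median was -0.61, and 0.26 against mock 2 alone.

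Seed storage and late embryogenesis genes, remnants of the seed programme, had the lowest median of any list. Of 19 tested genes 11 were lower and 2 higher in all 3 pairs, and 10 were lower at an unadjusted p under 0.05, beside 2.56% of all genes. The median difference was -1.0, made of -1.38, -1.78 and -0.17 in pairs 1 to 3. Under ACC, set against the same mock libraries, the median was -0.78, and the summed TPM of the list was 516.7, 590.6 and 4385. SESA2, a 2S albumin, measured 39.59, 64.04 and 235.3 TPM in mock and 1.12, 1.16 and 133.7 under PFT-α, a difference of -3.33 (95% interval -5.32 to -1.33). SESA1 measured 15.35, 32.64 and 171.7 TPM in mock and 0.8, 0.41 and 138.4 under PFT-α, and SESA3 10.85, 38.07 and 57.85 against 1.39, 0.24 and 45.65. In replicates 1 and 2 these 3 albumin transcripts were near 1 TPM under PFT-α, while in pair 3 they differed by -0.81 for SESA2, -0.31 for SESA1 and -0.34 for SESA3. SESA4 differed by -1.45, -2.45 and -1.30 in pairs 1 to 3. SESA5, ATS1 (a caleosin of oil bodies), OLEO2 and the cruciferin CRU2 had -1.67, -1.26, -1.22 and -1.18. LEA4-5 measured 13.91, 10.87 and 8.69 TPM in mock and 5.51, 7.81 and 5.6 under PFT-α, the single member with groups that did not overlap. CRA1, the most abundant cruciferin, had -0.14 and the oleosin OLEO3 0.14. GEA6 went the other way, with 8.65, 14.69 and 7.23 TPM in mock and 12.31, 20.63 and 44.9 under PFT-α. The summed TPM of the list was 951.9, 1527 and 3518 in mock and 457.9, 866.7 and 3230 under PFT-α, so replicate 3 held most in each group. In etr1-1 it was 740.5 and 7064 in mock and 7879 and 9124 under PFT-α, so the 2 etr1-1 mock libraries differed by more than any wild-type pair. The part of the replicate in the result was not tested beyond leaving pair 3 out, which gave a median of -1.38. In whole seedlings fewer cells of a type and less RNA per cell cannot be told apart.

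**Figure D4:**
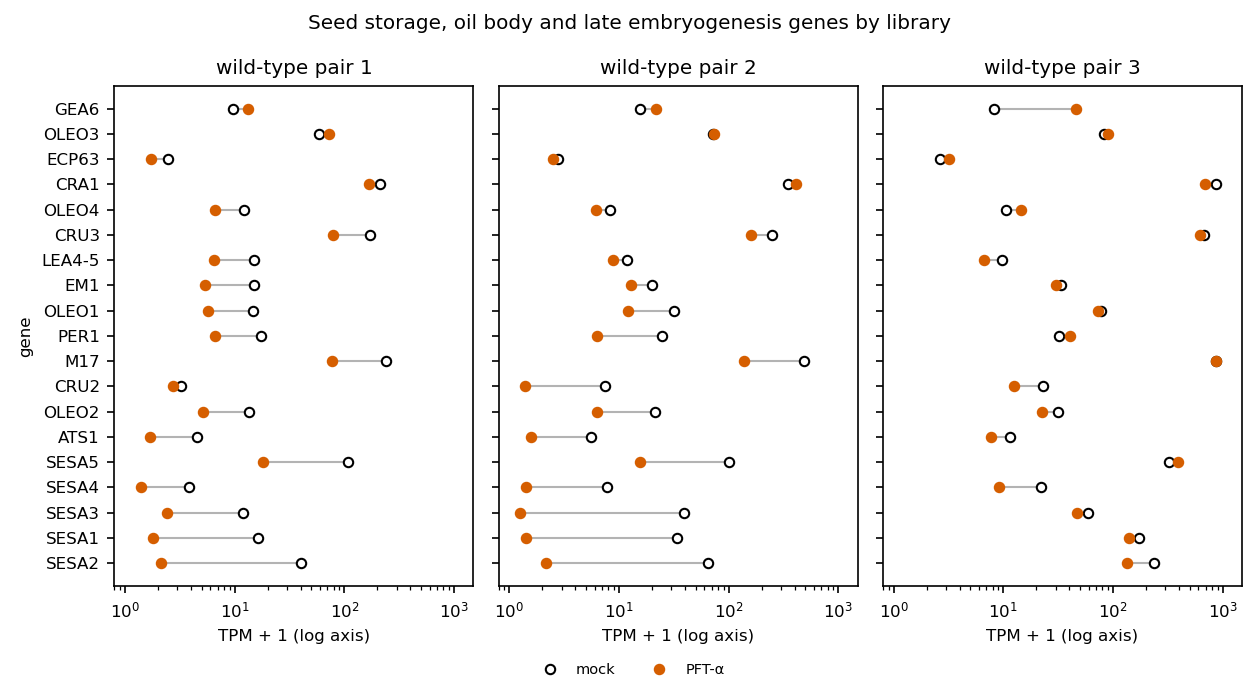
TPM + 1 on a log axis for 19 seed storage, oil body and late embryogenesis genes, in 1 panel per wild-type pair, with mock as open and PFT-α as filled circles. The albumins SESA1, SESA2 and SESA3 lie near 1 TPM under PFT-α in pairs 1 and 2, and in pair 3 most circles lie closer together.

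Antenna, photosystem and Rubisco genes were slightly higher, in nearly every member and every pair. Of 23 tested genes 22 were above 0 and 19 were higher and 0 lower in all 3 pairs, with a median of 0.18 and 0.13, 0.09 and 0.29 by pair. Under ACC, against the same mock libraries, the median was 0.20. None of the 23 reached an unadjusted p under 0.05 in limma's test. CAB2, which encodes a light-harvesting protein, measured 166.1, 168.7 and 224.5 TPM in mock and 206.8, 219.2 and 351.7 under PFT-α, a difference of 0.45 (95% interval -0.07 to 0.96), and CAB3 had 0.28. CAB1 measured 6831, 7144 and 11240 TPM in mock and 7692, 7853 and 13770 under PFT-α, and RBCS1A, a small subunit of Rubisco, 4556, 5109 and 12050 against 5096, 5670 and 14760. Both differed by 0.20. The list summed to between 30330 and 68970 TPM in the mock libraries. Light induces these genes, and the seedlings are labelled dark-grown. In etr1-1 the median was 0.01, and -0.31 against mock 2 alone. Chlorophyll and greening genes had a median of 0.03, with 6 of 21 higher and 3 lower in all 3 pairs.

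Detoxification genes, which many foreign compounds induce in plants, had medians near 0 that depended on replicate 3. Of 32 glutathione transferase genes 11 were higher and 2 lower in all 3 pairs, with a median of 0.03, or 0.15 without replicate 3. GSTU3 was the highest and measured 1.96, 1.13 and 0.34 TPM in mock and 6.04, 5.28 and 0.98 under PFT-α, a difference of 1.12 (95% interval 0.49 to 1.76). GSTU6 and GSTU4 had 0.50 and 0.46. GSTU26 measured 83.53, 97.24 and 45.91 TPM in mock and 72.92, 76.44 and 30.71 under PFT-α, a difference of -0.37, and GSTU28 had -0.55. Among 19 other detoxification genes the median was 0.06, or 0.24 without replicate 3, with the cytochrome P450 CYP81D11 at 0.31 and the efflux carrier DTX1 at 0.30. The transporter ABCC4 had -0.05.

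Plants have no p53, and SOG1 takes its place as the transcription factor of the DNA damage response. SOG1 measured 15.57, 15.12 and 13.1 TPM in mock and 15.61, 14.92 and 9.9 under PFT-α, a difference of -0.13 (95% interval -0.38 to 0.12). Of 24 tested DNA damage genes 1 was higher and 2 were lower in all 3 pairs, none reached an unadjusted p under 0.05 in limma's test, and the median was -0.03. BARD1, a partner of BRCA1 in repair, measured 3.29, 3.32 and 3.54 TPM in mock and 2.85, 2.93 and 2.38 under PFT-α, a difference of -0.24 without overlap. SMR5, NAC044 and NAC085, which SOG1 induces after damage, did not pass the filter on low values. ATRAD17 and AT4G19130, genes of the damage response, had 0.18 and -0.16. Among 20 heat shock genes the median was -0.06, with the peptidyl-prolyl isomerase AT5G48570 at -0.07. HSF4, a heat shock factor gene, measured 80.01, 62.83 and 19.59 TPM in mock and 100.7, 85.92 and 25.43 under PFT-α, a difference of 0.38. Of 5 small J-domain genes 4 were higher in all 3 pairs, AT3G13310 among them, beside 12% of all genes. The list was chosen with earlier results of these data known, so its count is a description and not support. J11 measured 169.7, 169.8 and 96.21 TPM in mock and 223.2, 229.8 and 133.3 under PFT-α, a difference of 0.43. AT2G17880 had 0.32, J20 0.15 and J8 -0.01.

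Among growth genes, wall-loosening expansins and xyloglucan enzymes, 32 tested, had a median of -0.16, with 10 lower and 5 higher in all 3 pairs. EXPA2, EXPA18 and EXPA7 had -0.82, -0.69 and -0.59, and XTH16 -0.34. EXPA12 measured 3.69, 3.2 and 3.4 TPM in mock and 7.45, 4.29 and 5.54 under PFT-α, a difference of 0.58 without overlap. EXPA12 was 3.75 higher under ACC, and XTH20 had 0.38 under PFT-α. Root hair markers, 7 genes that include EXPA7, EXPA18 and RSL4, summed to 25.78, 50.93 and 1.93 TPM in mock and 18.6, 17.22 and 1.75 under PFT-α. Of these 7 genes 4 were lower and 0 higher in all 3 pairs. Epidermis markers summed to 1023, 1262 and 1154 TPM in mock and 862.1, 940.6 and 694.1 under PFT-α, with a median of -0.41 over 3 genes, and the median under ACC was -0.72. PDF1, an epidermal layer marker, measured 633.1, 841.4 and 877.9 TPM in mock and 510.4, 573.2 and 538.9 under PFT-α, a difference of -0.52 (95% interval -0.87 to -0.18) without overlap. KCS10, a cuticle wax and fusion gene, had -0.41. Root markers had a median of -0.13. NRT2:1, a root nitrate transporter, measured 25.45, 25.25 and 1.73 TPM in mock and 9.68, 13.83 and 0.99 under PFT-α, a difference of -0.86 (95% interval -1.38 to -0.34), whereas the endodermal gene CASP1 had -0.24 and the quiescent-centre gene WOX5 0.44. Shoot meristem, vascular and stomatal markers had medians of 0.07, 0.03 and -0.20, with CLV3 at 0.82 from 0, 0.34 and 1.48 TPM in mock and 1.83, 0.63 and 3 under PFT-α. Every marker list of these whole seedlings was detected, and no marker was at 0 in all wild-type libraries. The part of root and epidermal tissue in the lower wall and root genes was not tested.

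Other pathways had small medians. Abscisic acid and cold genes had a median of -0.09 with 7 of 22 lower and 0 higher in all 3 pairs and 4 with lower groups that did not overlap, beside 2.57% of all genes, among them LTI65 at -0.43 and CBF1 at -0.32. Branched-chain amino acid genes had 0.09 with 7 of 14 higher and 0 lower in all 3 pairs, beside 12% of all genes higher. There BCAT-2, a transaminase, measured 137.5, 124.9 and 87.52 TPM in mock and 141.5, 145.2 and 157.6 under PFT-α, a difference of 0.37 without overlap. IMS1, which starts leucine synthesis, had 0.17. Gibberellin and brassinosteroid genes had -0.04, with 3 of 28 higher and 6 lower in all 3 pairs. RGL2, a DELLA repressor of germination, measured 1.88, 2.09 and 3.63 TPM in mock and 1.64, 1.28 and 1.6 under PFT-α, a difference of -0.47 without overlap. Sulfur and glutathione supply genes had a median of -0.09, the ethylene synthesis genes ETO1 and ACS2 had -0.26 and -0.23, and the major latex gene MLP329 had -0.21. The 8 reference genes often used as standards had a median of -0.06, with the actin gene ACT2 at -0.19 and PP2AA3 at -0.10.

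Single stress genes were higher in all 3 pairs inside lists whose median was near 0. RHL41 (ZAT12), a zinc finger factor of stress responses, measured 18.62, 17.03 and 1.9 TPM in mock and 22.93, 24.37 and 4.49 under PFT-α, a difference of 0.57 (95% interval 0.03 to 1.11). FRK1, a receptor kinase gene used as a marker of pattern-triggered immunity, measured 15.51, 9.56 and 2.8 TPM in mock and 17.95, 12.89 and 6.3 under PFT-α, a difference of 0.51 (95% interval 0.09 to 0.93). The groups of both overlapped, with replicate 3 lowest. The oxidative stress list had a median of 0.05 with 2 of 12 higher and 1 lower in all 3 pairs, and its ferritin FER1 had 0.10. The jasmonate, salicylate and defence list had -0.03 with 1 of 16 higher and 3 lower, and the synthesis genes AOS of jasmonate and EDS16 of salicylate had -0.13 and -0.16. Among greening genes LZF1, a B-box factor of light signalling, measured 22.56, 21.65 and 19.99 TPM in mock and 28.31, 25.93 and 28.87 under PFT-α, a difference of 0.36 without overlap. GPRI1 (GLK1), a chloroplast development factor, had -0.27, and HYH, a relative of the light-signalling factor HY5, -0.13.

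**Figure D5:**
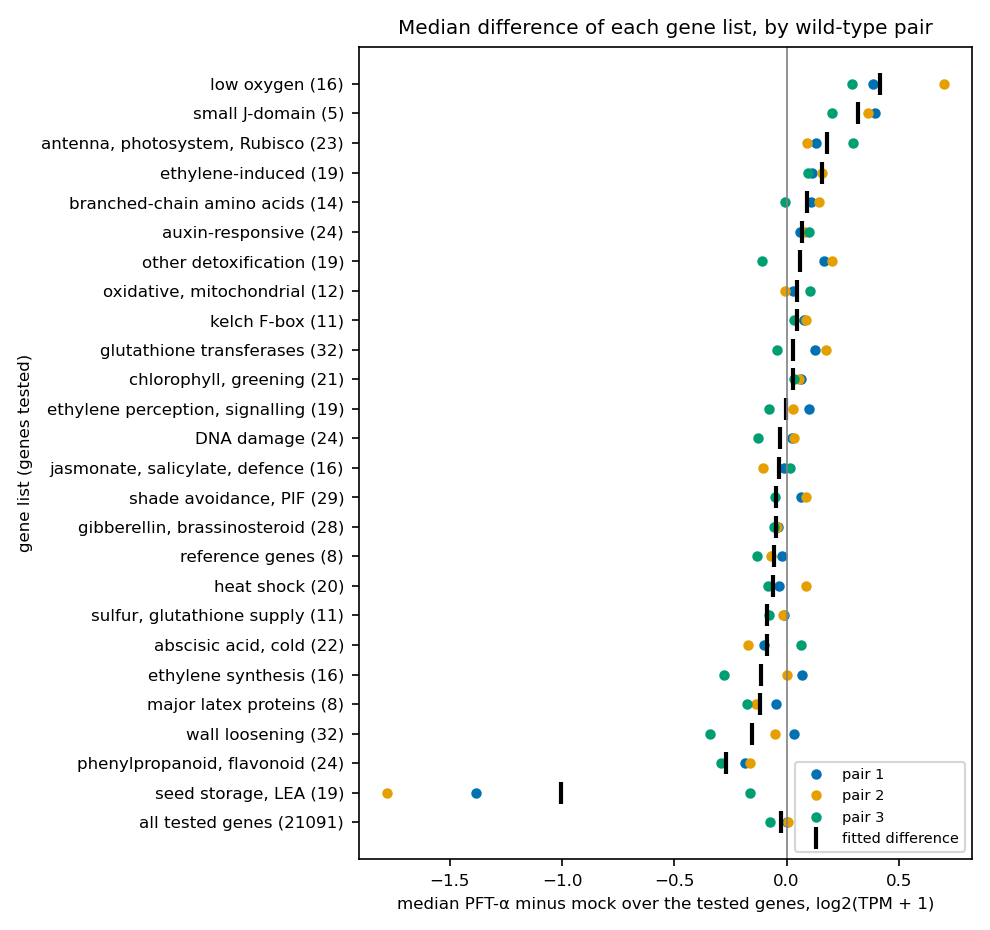
Median PFT-α minus mock difference of 25 gene lists and of all tested genes on the log2(TPM + 1) scale, with 1 circle per wild-type pair, a black bar for the fitted differences, and the number of tested genes in parentheses. Low oxygen lies highest at 0.42 and seed storage lowest at -1.0, where pair 3 stands at -0.17, and the remaining medians lie between -0.27 and 0.32.

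The wild-type response was also set against that of etr1-1. In etr1-1 itself 2 genes were called higher (0.00948%) and 3 lower (0.0142%) under PFT-α, and 2 genes (0.00948%) had a called difference between the genotypes. The 5 etr1-1 calls were AT2G44130 and the 155-base AT5G01145, both higher, and AT4G07170, AT4G39366 and the 210-base AT2G09775, all lower. AT5G01145 and AT2G09775 were at 0 TPM in all wild-type libraries. The genotype differences were those of short features, AT4G07170 and AT4G39366. Without the library labelled etr1-1 mock 2, leaving mock 1 as the sole etr1-1 mock, assumed to vary like the other groups, the etr1-1 calls became 1345 and the genotype differences 1077. Without mock 1 they were 3 and 3, and the calls on the average over genotypes went from 4 to 2, against 449 without mock 2. The comparison of genotypes thus rests on which etr1-1 mock library is used, and a p that misses the threshold does not show that the genotypes responded alike.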

How the data were processed

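Polyadenylated RNA was sequenced as paired-end stranded libraries, per the labels' protocols. The authors deposited TPM, named so per the file headers, for 33033 genes. The submitters' processing notes name the build TAIR10 and the tools DESeq2, RSEM, StringTie, HISAT, HISAT2 and fastp, with no version or role. Counts were not analysed here. Depth was estimated from the spacing of low values (83.1 to 86.3% of them in the 6 libraries lay within 0.15 of a whole fragment), at which 1 TPM of a 1500-base transcript is 19.9 to 24.0 fragments. The estimate takes 250 bases off each gene's length, an assumed value on which it rests. TPM scales each library to one total, so a rise of abundant transcripts lowers the rest.

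The 21091 genes that reached 1 TPM in 2 or more of 13 libraries were tested as log2(TPM + 1) with limma 3.58.1 (R 4.3.3), using the trend option, two-sided tests and Benjamini-Hochberg adjustment at 0.05. The wild-type fit held 9 libraries with the replicate number as a block. The etr1-1, interaction and averaged contrasts used all 13 with the block within wild type only. The numbers in the labels were taken to pair the libraries. The deviations of 2 wild-type libraries with one number from their group means had correlations across genes of 0.276 to 0.773 in all 9 pairs. For replicate 3 the correlation was 0.695 to 0.773. Replicates 1 and 2 gave 0.276 to 0.547 with the same number and 0.291 to 0.544 with different numbers. These correlations thus set replicate 3 apart but cannot tell which libraries of replicates 1 and 2 belong together. Tables were made in Python 3.11.15 (pandas 2.3.3, numpy 2.4.6) and plots with matplotlib 3.10.9.

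The genes named were every gene called between PFT-α and mock in wild type, in etr1-1, in their difference or in their average, the 12 with the smallest unadjusted p in each direction (mean at least 5 TPM, same sign in 3 pairs, at least 200 bases, no exon overlap), ETR1, RTE1, ARL, HB-2, SOG1, and per list the 2 highest and 2 lowest with the same sign in 3 pairs. Other list members are named for their role, and the KISS ME DEADLY grouping after its values were seen. The members and lists were chosen with earlier results of these data known. List entries (541 in 31 lists) matched by name and locus in 516 cases and by locus otherwise. 1 member of the ethylene lists, part of their counts and medians, is not reported here. Promoters came from the TAIR10.1 reference.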

Additional observations from a re-analysis of the deposited data

Results flagged for a closer look

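The PFT-α difference itself was called as unequal between wild type and etr1-1 for 2 features, both short, so that few fragments lie behind their TPM. AT4G07170, a 234-base noncoding RNA, measured 3.9, 2.3 and 9.66 TPM in wild-type mock and 16.21, 8.46 and 29.64 under PFT-α, and 13.52 and 11.61 in etr1-1 mock against 0 and 0 under PFT-α. The wild-type difference was above that in etr1-1 by 5.38 on the log2(TPM + 1) scale (limma adjusted p = 0.00584). AT4G39366, a 120-base feature, was at 0 in all 9 wild-type libraries, at 29.72 and 23.86 TPM in etr1-1 mock and at 0 in both etr1-1 PFT-α libraries, which gives a difference of 4.79 (limma adjusted p = 0.000338). Among 21091 tested genes no longer gene was called in that contrast.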

How the results depend on the processing

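The count of 0 genes between PFT-α and mock stayed at 0 without the replicate block (161 at an unadjusted p under 0.05), in 6 or all 13 libraries, with a robust prior, and under the other pseudocounts, filters and scalings tried. With library weights, which gave replicate 3 weights of 0.357 in mock and 0.506 under PFT-α, 42 genes were called, 21 higher and 21 lower. These include all 12 leading higher genes and 10 of the 12 lower ones. The leading genes were chosen by their unadjusted p for this comparison in the same libraries, so that overlap is a description and not support. Leaving out libraries gave 0 to 2 calls, 1 without replicate 2 (AT4G08425), 2 without mock replicate 1 (AT2G36030, AT3G01319) and 1 without mock replicate 2 (AT1G06397). In the weighted fit ACC replicate 2 had a weight of 8.92, beside 0.202 and 0.293 for ACC replicates 1 and 3. The weighted counts against or for ACC below thus rest largely on that library. For ACC against mock the count was 189 with no replicate block and 6611 with weights. With a library left out it was 218 to 1099, the lowest without ACC replicate 2. PFT-α against ACC gave 41 with no block, 5723 with weights and 52 to 530 with a library left out, the lowest without PFT-α replicate 2. In etr1-1 the 5 calls became 3 with no block, 1 with a pseudocount of 0.1, and 1 to 1345 with a library left out. The interaction gave 1 with no block, 1 with a pseudocount of 0.1 and 1 to 1077 with a library left out. The average over genotypes gave 9 with the block over all 13 libraries, 7 with weights and 1 to 449 with a library left out. The highest count in these 3 contrasts came without etr1-1 mock 2, and the lowest in the first and the last without etr1-1 PFT-α replicate 2. The cause was not tested.

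Of 2298 values of 110 named genes 2259 kept their direction and side of the threshold, 25 passed it with weights and 14 turned sign. ETR1 had -0.00501 with weights. With a pair or library left out ETR1 ran from -0.0222 to 0.0945, HB-2 from -0.0432 to 0.134, EIL3 from -0.157 to 0.0126, HYH from -0.211 to 0.0407, ABCC4 from -0.114 to 0.0137, AT5G10040 from -0.048 to 1.49, AT5G48570 from -0.173 to 0.0489, FER1 from -0.00763 to 0.179 and STM from -0.0203 to 0.123. Of 248 list medians 23 moved by more than the spread between pairs, among them phenylpropanoid genes, glutathione transferases and other detoxification genes, at -0.147, 0.147 and 0.237 without replicate 3. The shade avoidance list turned to 0.0654 without replicate 3. Median-of-ratios scaling and quantile normalization moved the median of all genes from -0.0246 to 0.00832 and 0.00481. Depth limits genes near 1 TPM, and 3 pairs limit the rest.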
